A study of Xenopus laevis with 5 samples.

Results

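Nuclear receptors are transcription factors whose shared DNA-binding domain recognises short hormone response elements and whose ligand-binding domain takes up a small lipophilic molecule such as a retinoid, a thyroid or steroid hormone, a fatty acid or a sterol. Many bind DNA as a heterodimer with a retinoid X receptor (RXR), and most exchange corepressor complexes for coactivators when their ligand binds. Orphan members such as the NR4A family act without a known classical ligand. In the early frog embryo retinoic acid receptors are known for anteroposterior patterning, and thyroid hormone receptors for metamorphosis much later.

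The receptors were picked from the deposited gene annotation by name. Symbols of the NR nomenclature and the common names of the retinoic acid, RXR, PPAR, thyroid, ROR, oestrogen, oestrogen-related, vitamin D and HNF4 receptors were matched, in all copies. This gave 84 of the 45099 gene models. One of the matches, nr2c2ap.S, encodes an NR2C2-associated protein and not a receptor. It had 6 and 0 reads in the MOV10 libraries and 1, 4 and 5 in the controls, was not tested, and is left out of all counts given here. The other 83 models belong to 44 receptor genes. Xenopus laevis is an allotetraploid frog, so most genes have an L copy and an S copy, named for the long and the short chromosome set, and 39 receptor genes were present as such a pair.

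Each library was made from whole embryos of stage 10.5, the early gastrula, labelled as biological replicates. There were 2 libraries from embryos given 18 ng of a translation-blocking MOV10 morpholino (replicates 2 and 3) and 3 from embryos given a control morpholino at the same amount (replicates 1, 2 and 3). MOV10 is an RNA helicase of the RNA-induced silencing complex, and a morpholino is an antisense oligonucleotide that both groups received. Eggs came from 2 mating pairs, and the sources used here do not tie libraries to pairs, so p-values measure the spread between these libraries. The design asks how RNA levels differ when MOV10 translation is blocked.

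Gene-assigned reads numbered 11347400 to 13515787 per library, and the unit of level is CPM (reads of a gene relative to the reads of its library, with TMM scaling). CPM is not scaled to transcript length, so single levels of different genes are not compared. Sums over several genes, and shares of such sums, also depend on transcript length and are compared only between libraries. A floor of 3 counts in a library stood at 0.200 to 0.283 CPM. RNA of the target, mov10.L, had 349 and 275 counts in the MOV10 libraries and 105, 33 and 71 in the controls, which checks no label, since the morpholino acts on translation.

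The groups stood far apart across the whole transcriptome, and markers of several tissues moved with the morpholino. Across genes, log2 CPM correlated at 0.941 between the MOV10 libraries, at 0.961 to 0.963 among controls and at 0.737 to 0.769 between groups. Of 22 tested muscle marker copies 20 rose and 0 fell, with a summed level of 15156 to 17415 CPM in the MOV10 libraries against 172 to 494 CPM in the controls. No control read was found for tnnt2.L, tnnc1.L and tnnc1.S. Of 16 early gastrula marker copies 13 fell and 0 rose, with sums of 694 to 1193 CPM in the MOV10 libraries and 2906 to 3781 CPM in the controls. Of ciliated and other epidermal markers 6 of 10 rose (2897 to 4345 CPM, against 1458 to 2250 CPM), of neural markers 3 of 6 (58.1 to 78.3 CPM, against 28.9 to 33.0 CPM) and of liver markers 4 of 7 (29.9 to 55.8 CPM, against 5.12 to 11.3 CPM). None of these fell. Across all 20049 tested genes 24.4% rose and 17.7% fell. A filter on low counts can let a marker through on its MOV10 reads alone. That held for the liver markers apoa1.L and apoa1.S and the muscle marker tnnc1.S, which had no control read. It also held for muscle markers such as mypn.S and klhl41.S, each with 1 control read in all. The shares of markers that rose are thus not support by themselves. Blood and myeloid markers summed to 3.39 to 11.1 CPM, against 0.894 to 5.03 CPM. Of these spib.S and mpo.L were at 0 in every library, mpo.S had 59 and 5 reads in the MOV10 libraries and 10, 3 and 1 in the controls, and lcp1.S, the single copy tested, had 40 and 12 against 10, 8 and 39 and did not pass. The liver markers fga.L and serpina1.L were also at 0 throughout. In whole-embryo RNA, more cells of a type and more RNA per cell cannot be told apart. The receptor values come from these same libraries. The part of the marker differences in them was not tested, and the stage the embryos had reached and the morpholino cannot be told apart.

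Across the family, more receptor copies were higher in the MOV10 group than lower. The summed level of all 83 copies was 328 and 364 CPM in the MOV10 libraries, against 103, 90.4 and 90.9 CPM in the controls. These sums leave out the 3 rarg-like models, which the name rule did not take. Of those, rarg-like.1.L had 168 and 183 CPM in the MOV10 libraries, against 167, 110 and 81.7 CPM in the controls. The sums are thus not the level of the whole receptor family. Of the 83 copies, 32 had enough reads to be tested. Among them 13 rose, 2 fell and 17 did not pass edgeR's quasi-likelihood test at a Benjamini-Hochberg adjusted p of 0.05. Across all 20049 tested genes 24.4% rose and 17.7% fell, 42.1% together. The median log2 fold change was 1.17 over the tested receptor copies and 0.08 over all tested genes. A filter on low counts lets a gene through on the strength of the group in which it is high, so these shares are not support by themselves. Reads in the MOV10 libraries alone carried 8 of the 32 copies past it, and 7 of those rose. The other 6 copies that rose and both that fell were among the 18 that had reads over the minimum in each group alone, a class in which 20.6% of all genes rose and 20.3% fell. The authors' deposited table has a false discovery rate under 0.05 for 33.1% of its 19421 genes. It lists 30 receptor copies, of which 13 were higher and 0 lower at that rate. Its label may stand for a 1.5-fold threshold, so these counts may rest on another test than the 13 and 2 here.

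**Figure D1:**
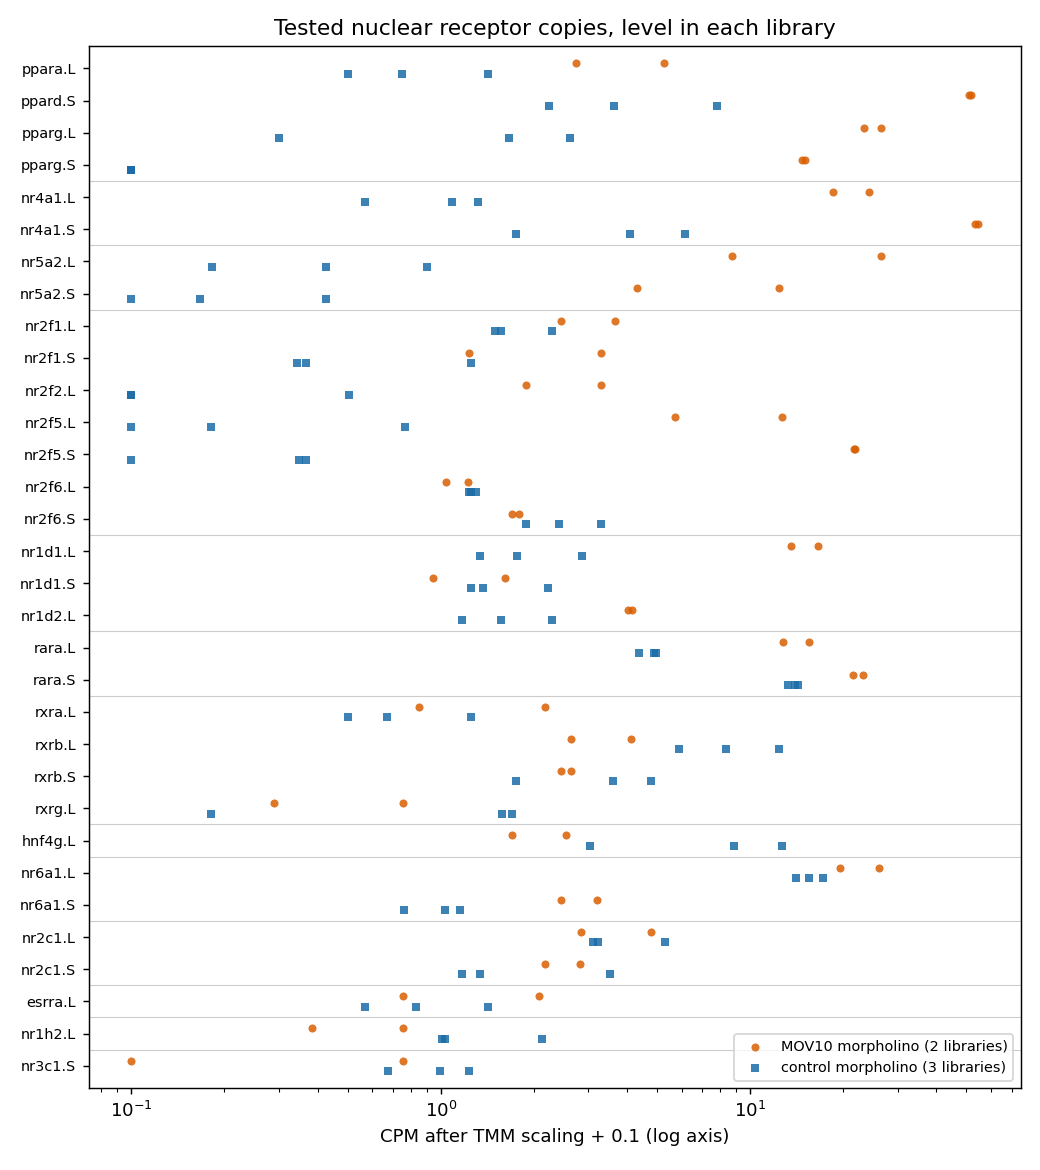
Level of each of the 32 tested receptor copies in each library, as CPM + 0.1 on a log axis. Circles are the 2 MOV10 libraries and squares the 3 controls. All PPAR, NR4A and NR5A copies shown have both MOV10 libraries to the right of every control. The same held for 35.5% of all tested genes. Of these copies, ppara.L, pparg.S, nr5a2.L and nr5a2.S passed the filter on low counts through the MOV10 libraries alone.

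In the PPAR group of fatty acid sensors all 4 copies rose, the call of ppara.L being lost in 4 of 12 alternatives. Across all tested genes 24.4% rose. Both ppara.L and pparg.S passed the filter on low counts through the MOV10 libraries alone, so the count of 4 is not support by itself. For pparg.S (Xelaev18002600m.g, Scaffold 32, 1965501 to 1987868, Xenla9.1 build), the receptor known in mammals as the regulator of adipocyte formation, 156 and 159 reads were counted in the MOV10 libraries and none in any control. It was at least 195-fold higher when the 3 controls are credited with 3 counts in all (edgeR adjusted p = 1.95e-04), and at least 121-fold without control replicate 1. Its partner pparg.L stood at 26.5 and 23.2 CPM in the MOV10 libraries, against 0.200, 2.52 and 1.57 CPM in the controls. That copy was 17.6-fold higher (log2 4.14 ± 0.68 SE, edgeR adjusted p = 0.00198), and 28.8-fold without control replicate 2.

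The broadly expressed fatty acid receptor gene ppard.S had 51.6 and 50.8 CPM in the MOV10 libraries and 2.14, 7.72 and 3.54 CPM in the controls. The MOV10 libraries lay close to each other, control replicate 2 lay above the other controls, and the groups did not overlap. The fitted change was 11.5-fold (log2 3.52 ± 0.47 SE, edgeR adjusted p = 7.36e-04), or 18.1-fold without control replicate 2. The weakest of the group was ppara.L, a driver of fatty acid oxidation genes in mammalian liver, at 2.63 and 5.18 CPM in the MOV10 libraries and 0.401, 0.650 and 1.32 CPM in the controls. Its 4.94-fold rise (edgeR adjusted p = 0.0266) did not overlap between the groups. The call ended without control replicate 1 (adjusted p = 0.0679), without control replicate 2 (0.0668), without MOV10 replicate 3 (0.226) and with the replicate number as a block (0.104), and its adjusted p ran between 0.0131 and 0.226 across 12 alternatives. Together the 4 PPAR copies summed to 95.4 and 94.2 CPM in the MOV10 libraries, which was 29.0% and 25.9% of the summed CPM of the 83 copies. In the controls they summed to 2.74, 10.9 and 6.43 CPM, or 2.65, 12.1 and 7.07% of the same sum. The rarg-like models are outside that sum, and the PPAR shares would be lower with them.

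**Figure D2:**
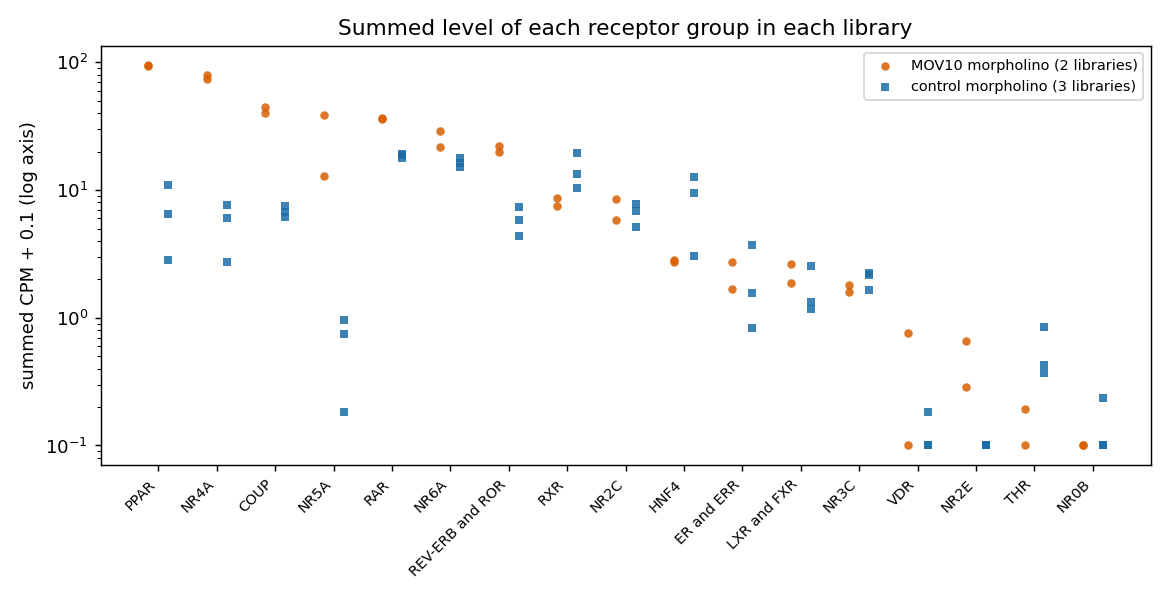
Summed CPM + 0.1 of each receptor group in each library, on a log axis, with the 2 MOV10 libraries left of the 3 controls in each group. PPAR, NR4A, COUP and NR5A sums lie far above the controls in both MOV10 libraries, whereas RXR sums lie below. The rarg-like models, outside the name rule, are in none of the sums.

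NR4A receptors are immediate early genes, switched on within minutes by growth factor and stress signals without new protein synthesis. Copies of nr4a1 (NUR77) rose in the MOV10 group. The S copy had 54.4 and 53.4 CPM in the MOV10 libraries and 6.08, 3.98 and 1.65 CPM in the controls, a 13.7-fold difference (log2 3.77 ± 0.45 SE, edgeR adjusted p = 4.65e-04). The L copy had 18.5 and 24.1 CPM against 0.468, 1.22 and 0.989 CPM in the controls, and was 24.0-fold higher (edgeR adjusted p = 1.83e-04). For the related nr4a2 (NURR1, a gene of dopaminergic neurons) and nr4a3 the reads were too few to test. The S copy of nr4a2 had 6 and 20 reads in the MOV10 libraries and 5, 2 and 0 in the controls, and the L copy had 1 and 1 against 10, 3 and 0. Neither MOV10 library held a read of nr4a3.L, and 1 control had 4.

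LRH-1, encoded by nr5a2, binds phospholipids and is known in mouse for its part in pluripotent cells and in the endoderm. Its L copy was at 8.63 and 26.3 CPM in the MOV10 libraries, against 0.802, 0.325 and 0.0824 CPM in the controls. The S copy followed with 4.22 and 12.3 CPM, against 0.0668, 0.325 and 0 CPM. In both copies MOV10 replicate 3 lay well above replicate 2, and the groups did not overlap. Both passed the filter on low counts through the MOV10 libraries alone, so their calls are not support by themselves. The fitted rises were 40.7-fold for the L copy (edgeR adjusted p = 9.17e-04) and 59.7-fold for the S copy (edgeR adjusted p = 0.00156). Without MOV10 replicate 3 they were 20.1-fold and 30.3-fold, and without control replicate 1 the L copy was 81.3-fold higher. The S copy had 1 control count without control replicate 2, with a ratio of 223 (95% counting interval 39.5 to 8861). The models named nr5a1, the symbol of the steroidogenic receptor SF-1, had no read in any library, in either copy. Their human match in the annotation is NR5A2, so their identity is not settled by these files.

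COUP-type receptors are orphan repressors of the NR2F class that mark regions of the nervous system, the heart and the vessels. The copies of nr2f5, a member present in fish and frogs, rose. Both passed the filter on low counts through the MOV10 libraries alone, so their calls are not support by themselves. For nr2f5.S there were 21.6 and 21.8 CPM in the MOV10 libraries and 0.267, 0 and 0.247 CPM in the controls, and it was 116-fold higher (log2 6.86 ± 0.61 SE, edgeR adjusted p = 1.26e-04). Without control replicate 1 its controls held 3 counts, with a ratio of 177 (60.0 to 859). For nr2f5.L there were 5.63 and 12.5 CPM against 0.668, 0.0813 and 0 CPM, a 32.8-fold rise (edgeR adjusted p = 0.00352). It was 20.5-fold without MOV10 replicate 3, and without control replicate 1 it had 1 control count and a ratio of 222 (39.3 to 8805). In both copies the groups did not overlap.

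Lower in reads was nr2f2.L (COUP-TFII, known for veins and the atria of the heart), with 34 and 19 counts in the MOV10 libraries and 0, 5 and 0 in the controls. It rose 17.8-fold (edgeR adjusted p = 0.0270), but all control reads came from replicate 2, and without that library it was at least 22.5-fold higher. Like the nr2f5 copies, nr2f2.L passed the filter on low counts through the MOV10 libraries alone. The call ended without control replicate 1 (11.6-fold, adjusted p = 0.0514) or 3 (0.0591), without MOV10 replicate 2 (0.179) or 3 (0.0609), with the replicate block (0.0713) and on counts without strand (0.0542), between 0.00756 and 0.179 across 12 alternatives. The untested nr2f2.S had 4 and 25 reads in the MOV10 libraries and 4, 3 and 4 in the controls. For nr2f1 (COUP-TFI), the log2 fold changes were 1.96 ± 0.92 (S copy, SE) and 0.81 ± 0.56 (L copy, SE), neither past the test. The nr2f6 copies had -0.17 ± 0.70 (L) and -0.56 ± 0.58 (S) and did not pass either. Left without control replicate 3, nr2f1.S passed at a log2 fold change of 3.03 (edgeR adjusted p = 0.0398).

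**Figure D3:**
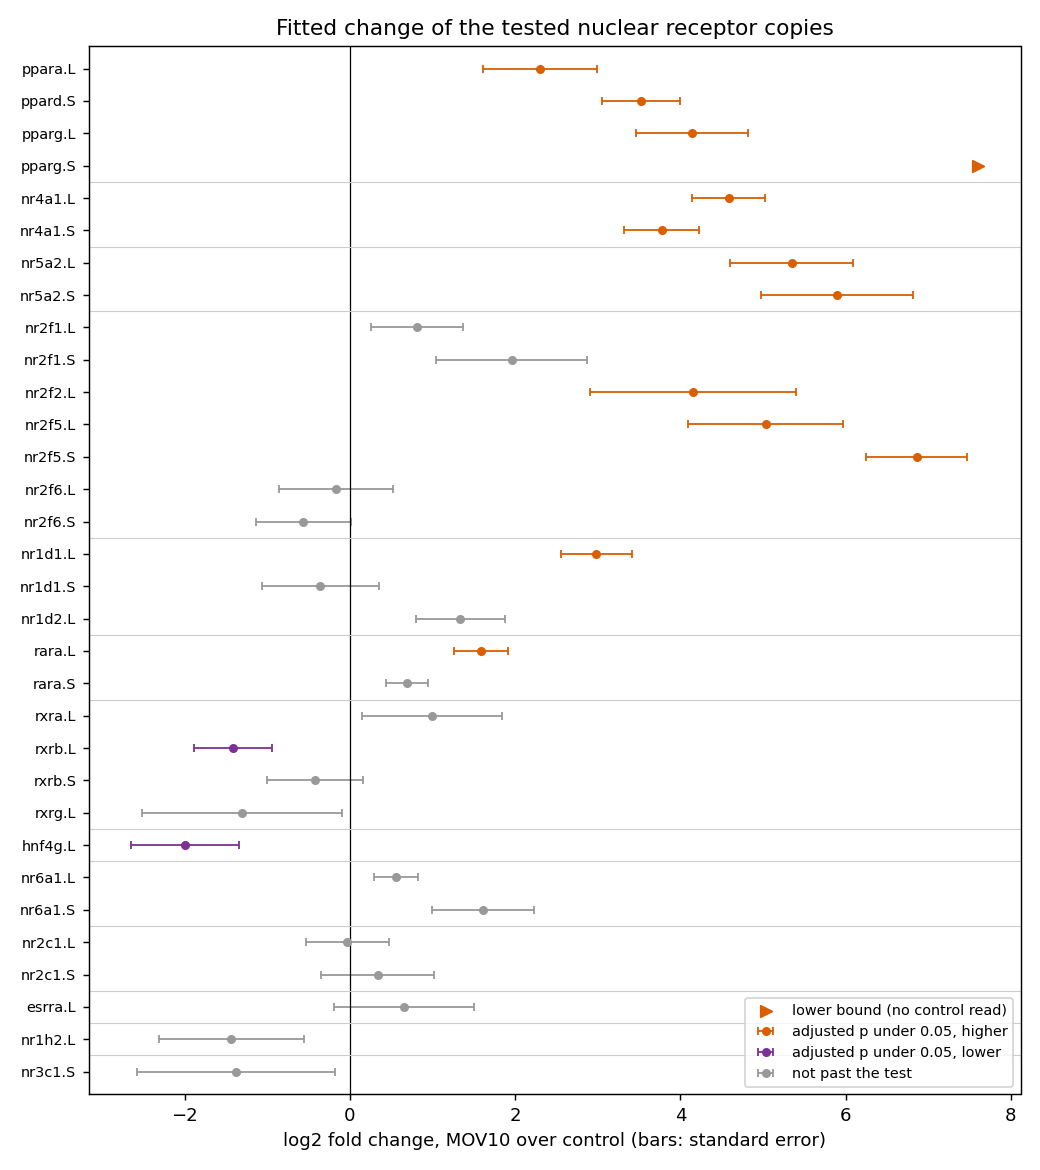
Fitted log2 fold change, MOV10 over control, of the 32 tested receptor copies with the standard error as bars, grouped by receptor type. The arrowhead of pparg.S is a lower bound; PPAR, NR4A and NR5A copies lie right of 0, and rxrb.L and hnf4g.L are the 2 that fell.

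Receptors of the circadian loop bind heme (REV-ERB) or sterols (ROR), and compete for the same elements. REV-ERB alpha is encoded by nr1d1. Its L copy was at 16.5 and 13.5 CPM in the MOV10 libraries, against 1.67, 2.76 and 1.24 CPM in the controls, and rose 7.91-fold (log2 2.98 ± 0.43 SE, edgeR adjusted p = 0.00107). The S copy was at 0.845 and 1.51 CPM against 1.27, 2.11 and 1.15 CPM. Its groups overlapped (log2 -0.36 ± 0.71 SE, edgeR adjusted p = 0.714). REV-ERB beta gene nr1d2.L had 3.94 and 4.05 CPM in the MOV10 libraries and 1.47, 2.20 and 1.07 CPM in the controls, with a log2 fold change of 1.34 ± 0.54 (SE) that did not pass (edgeR adjusted p = 0.0776). Copies of rora, rorb and rorc had at most 10 reads in a library and were not tested.

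Retinoic acid receptors bind the ligand that the embryo makes from vitamin A, and recruit corepressors in its absence. The L copy of rara rose to 15.4 and 12.6 CPM in the MOV10 libraries, against 4.88, 4.80 and 4.28 CPM in the controls. That was a 3.01-fold change (log2 1.59 ± 0.32 SE, edgeR adjusted p = 0.00518), and the call held in all 12 alternatives. For rara.S there were 21.4 and 23.0 CPM against 14.2, 13.8 and 13.2 CPM. Although the groups did not overlap, its log2 fold change of 0.69 ± 0.25 (SE) did not pass (edgeR adjusted p = 0.0549). It did with DESeq2 (adjusted p = 0.0245), with RLE factors (0.0477) and on counts without strand (0.0419), between 0.0245 and 0.286 across 12 alternatives. Among all tested genes, 35.5% had both MOV10 libraries above every control. In rarb, itself a classical target of retinoic acid, the L copy had no read in any library and the S copy 3 reads in 1 control.

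No model carries the plain name rarg, so the name rule took none, and 3 models named rarg-like, chosen after their values were seen, are given here for that reason. Of these, rarg-like.1.L was at 168 and 183 CPM in the MOV10 libraries and 167, 110 and 81.7 CPM in the controls. The difference was 0.55 ± 0.29 on the log2 scale (SE; edgeR adjusted p = 0.155), and it passed without control replicate 1 (0.87, edgeR adjusted p = 0.0231) and with the replicate block (0.88, 0.00959). Its partner rarg-like.1.S had 70.0 and 93.6 CPM against 97.6, 55.5 and 62.3 CPM. That overlap gave 0.19 ± 0.29 (SE; edgeR adjusted p = 0.629), a direction that flipped to -0.019 with total gene counts as the scale. The third model, rarg-like.2.L, had -0.72 ± 0.46 (SE; edgeR adjusted p = 0.241). Progesterone and androgen receptor models, also outside the rule, had at most 5 reads in a library.

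RXR genes encode the common partner of the retinoid, thyroid, vitamin D, PPAR, LXR and FXR receptors. Here rxrb.L was at 4.04 and 2.55 CPM in the MOV10 libraries and 12.3, 5.77 and 8.24 CPM in the controls, without overlap, and it fell 2.66-fold (edgeR adjusted p = 0.0409). The annotation's human match for both rxrb copies is RXRA, so which RXR they encode is not settled by these files. The call ended without control replicate 1 (adjusted p = 0.135) or 3 (0.0787), without MOV10 replicate 2 (0.0505) or 3 (0.159), with the replicate block (0.124) and in a test against a 1.5-fold change (0.0877), between 0.0224 and 0.159 across 12 alternatives of rxrb.L. The S partner had 2.53 and 2.36 CPM against 4.68, 3.50 and 1.65 CPM, with a log2 fold change of -0.42 ± 0.58 (SE) that did not pass. Also short of the test were rxra.L (log2 0.995 ± 0.85 SE) and rxrg.L (-1.31 ± 1.21 SE). Summed over 6 copies, RXR stood at 8.63 and 7.35 CPM in the MOV10 libraries and at 19.4, 10.3 and 13.3 CPM in the controls.

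HNF4 receptors hold a fatty acid constitutively and are known from liver, gut and kidney. Its member hnf4g.L had 2.44 and 1.60 CPM in the MOV10 libraries, against 12.6, 2.93 and 8.73 CPM in the controls. The controls were spread widely, and the highest MOV10 value lay just under the lowest control. It fell 3.99-fold (edgeR adjusted p = 0.0374), a call that ended without control replicate 1 (adjusted p = 0.117) or 3 (0.0889), without MOV10 replicate 2 (0.0663) or 3 (0.129), with the replicate block (0.115) and in a test against a 1.5-fold change (0.0630), between 0.00937 and 0.129 across 12 alternatives. In hnf4g.S no control had a read and the MOV10 libraries had 2 and 6. Among all tested genes 30.4% had both MOV10 libraries below every control.

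Germ cell nuclear factor gene nr6a1, an orphan repressor that silences the pluripotency factor Oct4 in mouse, did not pass in either copy. Its L copy had 19.4 and 26.0 CPM in the MOV10 libraries and 15.4, 14.0 and 17.1 CPM in the controls (log2 0.55 ± 0.27 SE, edgeR adjusted p = 0.130). For nr6a1.S there were 2.35 and 3.11 CPM against 0.935, 1.06 and 0.659 CPM (log2 1.61 ± 0.62 SE, edgeR adjusted p = 0.0652). Testicular receptor gene nr2c1 was near no difference, at log2 fold changes of -0.03 ± 0.50 (L) and 0.33 ± 0.68 (S). For the 4 copies of nr2c1 and nr2c2 together, sums were 8.35 and 5.75 CPM in the MOV10 libraries and 7.61, 6.75 and 5.03 CPM in the controls.

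The thyroid hormone, vitamin D and oestrogen receptors had few or no reads in these libraries. Thyroid hormone receptor genes thra and thrb had 1 and 0 reads over all 4 copies in the MOV10 libraries, and 4, 4 and 9 in the controls. The vitamin D receptor gene vdr had 7 and 0 reads against 0, 1 and 0. Oestrogen receptor genes esr1 and esr2 had 1 read in all, in a MOV10 library, and DAX1 gene nr0b1 had none. The glucocorticoid receptor copy nr3c1.S had 7 and 0 reads in the MOV10 libraries, against 17, 11 and 7 in the controls (log2 fold change -1.38 ± 1.20 SE, not past the test). Its untested partner nr3c1.L had 4 and 14 reads against 3, 3 and 9. The mineralocorticoid receptor copies of nr3c2 had at most 10 reads in a library. Oestrogen-related receptor copy esrra.L, which did not pass, had 7 and 21 reads against 7, 9 and 16, and esrra.S had none in the MOV10 libraries and 4, 9 and 28 in the controls. Untested for its low counts, esrra.S was at least 7.37-fold lower when the MOV10 libraries are credited with 3 counts in all. That bound was 3.38-fold without control replicate 3, 3.68-fold without MOV10 replicate 2 and 3.70-fold without MOV10 replicate 3. Of the LXR and FXR genes only nr1h2.L (LXR beta, a sterol sensor) was tested, at 7 and 3 reads against 14, 25 and 11 (log2 fold change -1.44 ± 0.88 SE, not past the test). FXR gene nr1h4.L, a bile acid sensor, had 2 and 15 reads in the MOV10 libraries and none in the controls.

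In all, 51 copies were not tested, 15 of them without a read in any library. Of the 83 receptor copies, 12 had reads in the MOV10 group only and 7 in the controls only. The same was not counted over all gene models, and some of these copies, such as esr1.S and nr1h4.S, had 1 read in all. These numbers are thus not read as a difference of the family. At or under 3 counts in each group, 22 of the 83 gave no detectable difference at this depth.

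Calls did not always fall on both copies of a pair. In 11 pairs both copies were tested. Both rose in 4 (pparg, nr4a1, nr5a2 and nr2f5). In 2 pairs 1 copy rose and its partner did not pass (rara and nr1d1). In 1 pair 1 copy fell and its partner did not pass (rxrb), and in 4 neither passed. The same calls were not counted over all pairs, so these numbers have no background. Single copies rose in 24.4% and fell in 17.7% of all tested genes. Both copies of nr5a2 and nr2f5, and pparg.S, passed the filter on low counts through the MOV10 libraries alone. A call in 1 copy only does not show that the copies differ, so the share of a pair's reads on the L copy was followed within each library for the 9 pairs with at least 20 reads in every library. No test was run on it, and its intervals cover counting error only. The L copy of nr1d1 took 95.1 and 89.9% of the pair's reads in the MOV10 libraries, against 56.8, 56.7 and 51.7% in the controls. For the lowest MOV10 value the Wilson 95% interval was 84.3 to 93.7%, above the highest control's 42.2 to 70.3%. In rara the L copy took 41.8 and 35.4% against 25.5, 25.8 and 24.5%, again without overlap of the values. In nr6a1 it took 89.2 and 89.3% against 94.3, 93.0 and 96.3%. The rxrb and hnf4g shares were also lower in both MOV10 libraries than in every control. For rxrb the nearest values were 61.4% (49.7 to 72.0%) in MOV10 replicate 2 and 62.3% (53.1 to 70.6%) in control replicate 2. Those intervals overlapped. The hnf4g difference rested on 2 and 6 reads of the S copy in the MOV10 libraries. The shares of nr4a1, nr2c1, nr2f1 and nr2f6 overlapped. Of all 5150 L and S pairs with as many reads, 52.4% had shares that did not overlap between the groups (27.1% higher and 25.3% lower in both MOV10 libraries), and the 5 of 9 receptor pairs lie near that background.

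**Figure D4:**
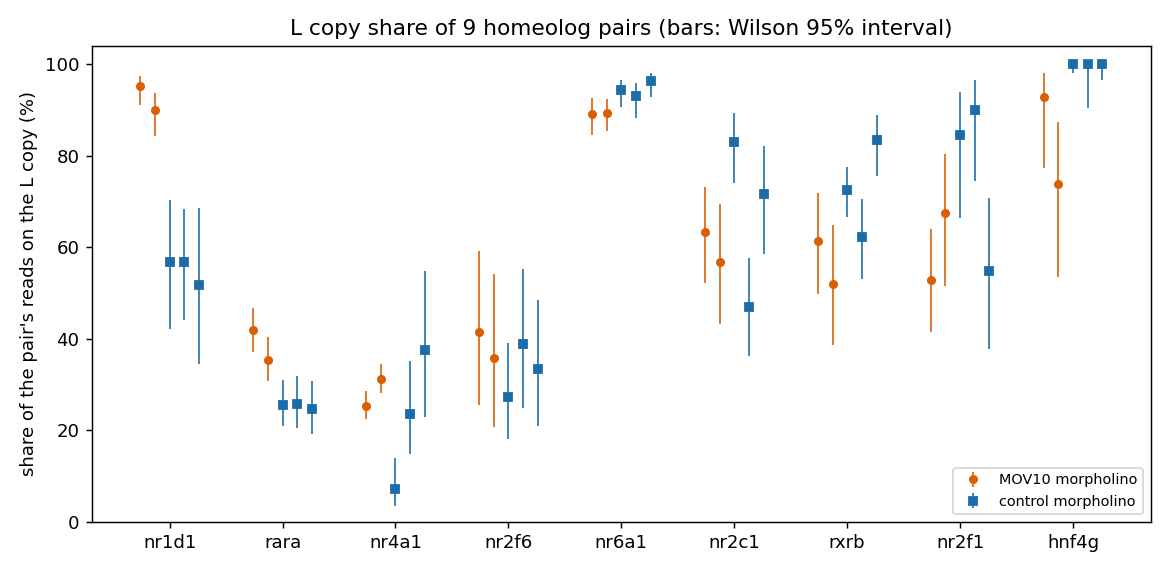
Share of each pair's reads that lay on the L copy, in percent, for the 9 receptor pairs with at least 20 reads in every library. Circles are the MOV10 libraries and squares the controls, with Wilson 95% intervals; nr1d1 and rara lie higher in both MOV10 libraries, and nr6a1, rxrb and hnf4g lower.

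The nr1d1 and rara genes also lie on the same chromosomes, with gaps of 175 kb (L copies) and 159 kb (S copies) between them. Gene models within these gaps were not examined. On chromosome 9_10L of the Xenla9.1 build, rara.L (1595334 to 1634902), nr1d1.L (1809645 to 1817045) and thra.L (1830384 to 1914631) lie in this order, with rara.L and thra.L on the minus strand and nr1d1.L on the plus strand. The first 2 rose, and thra.L had 1 and 0 reads in the MOV10 libraries and 2, 0 and 7 in the controls. On chromosome 9_10S the same order holds for rara.S (1362295 to 1379204), nr1d1.S (1538507 to 1545476) and thra.S (1563057 to 1646855), where neither rara.S nor nr1d1.S passed the test and thra.S had no read. The paralogous cluster on chromosomes 6L and 6S holds nr1d2, thrb and rarb. There nr1d2.L was the only copy with enough reads to be tested. None of the 3 models on 9_10L overlapped another annotated model.

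Around the receptors, genes for ligand supply, coregulators and known target genes were taken from lists built on textbook knowledge, with all copies counted. Their counts stand beside the shares over all tested genes, of which 24.4% rose and 17.7% fell. No test compared a list with other genes or lists. The limit that the filter on low counts sets for the receptors holds for the lists too. In retinoid metabolism 7 of 18 tested copies were called lower (38.9%) and 4 higher (22.2%), and without MOV10 replicate 2 there were 4 lower ones. The median log2 fold change was -0.75. The retinoic acid-degrading enzyme gene cyp26a1 fell in its L copy to 68.4 ± 16.7 CPM (SD, 2 MOV10 libraries) against 304 ± 20.2 CPM (SD, 3 controls), and in its S copy to 79.3 ± 5.97 CPM against 357 ± 92.7 (edgeR adjusted p = 2.54e-04 and 4.37e-04). The synthesising enzyme gene aldh1a2.S fell 14.6-fold, to 1.18 ± 0.0628 CPM against 17.3 ± 1.87 (edgeR adjusted p = 1.83e-04). The members that rose, named after their values were seen, were the carrier genes crabp2 and rbp4 in both copies. For crabp2 the rises were 6.72-fold (L) and 6.97-fold (S), and rbp4.S was at least 22.9-fold higher with no control read, or 14.2-fold without control replicate 1. It lost its call without MOV10 replicate 3 (edgeR adjusted p = 0.0577). The L copy of rbp4, with 1 control count, had a ratio of 183 (32.2 to 7319), or 114 without control replicate 1, and was at least 42.3-fold higher without control replicate 3, which held that count.

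Of 22 tested copies of retinoid target genes 10 were called higher (45.5%, against 24.4% of all genes) and 3 lower (13.6%, against 17.7%), at a median log2 fold change of 1.39. Some of the 10, such as hoxb1.L and hoxb4.L with no control read, passed the filter on low counts through the MOV10 libraries alone. Their share is thus not support by itself. Without MOV10 replicate 3 only 6 were higher. Transglutaminase gene tgm2.L had 161 and 173 reads in the MOV10 libraries and 1, 0 and 0 in the controls, a ratio of 619 (110 to 24521). It was at least 128-fold higher without control replicate 1, which held its only control read. Hindbrain patterning gene hoxa3.S rose 51.0-fold to 22.5 ± 3.60 CPM, against 0.433 ± 0.204 in the controls (edgeR adjusted p = 7.21e-05). The opposite held for hoxd1.L, which fell 16.4-fold, with 2.63 and 3.77 CPM in the MOV10 libraries against 46.8, 69.0 and 41.8 CPM in the controls (edgeR adjusted p = 1.36e-04). The other members that fell were hoxd1.S and meis3.S, the second of them without a call when control replicate 1 or 2 or MOV10 replicate 2 was left out (edgeR adjusted p = 0.0514, 0.0824 and 0.180).

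Among genes known as PPAR targets 5 of 16 tested copies were called higher and 3 lower (24.4% and 17.7% of all genes), with a median log2 fold change of 0.23. The peroxisomal bifunctional enzyme gene ehhadh.S rose 12.6-fold, or 18.9-fold without control replicate 2, and lipid droplet gene cidec.L 8.86-fold. The members that fell were the fatty acid carrier gene fabp4.S (2.87-fold) and both copies of the lipid droplet coat gene plin2. For plin2.L the fall was 2.36-fold, and it ended as a call without MOV10 replicate 3 (edgeR adjusted p = 0.0723). Without MOV10 replicate 2 it was 3.55-fold. For plin2.S it was 2.75-fold, and it ended without MOV10 replicate 2 (edgeR adjusted p = 0.0617). These 3 were named after their values were seen.

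Of 27 tested coactivator copies 7 were lower (25.9%) and 3 higher (11.1%), so that 37.0% had a call against 42.1% of all genes (median log2 fold change -0.05), and the lower ones numbered 4 without MOV10 replicate 2 or with the replicate block. Histone acetyltransferase gene ep300.S fell 2.80-fold, to 26.2 ± 9.30 CPM against 73.3 ± 7.28 in the controls, and histone methyltransferase gene nsd1.S fell 2.69-fold, while crebbp.L rose 2.46-fold (edgeR adjusted p = 0.00360, 0.00629 and 0.00470). The partner copies ep300.L and nsd1.L did not pass, at log2 fold changes of -0.05 and 0.45, and crebbp.S, named after its value was seen, fell 1.75-fold (edgeR adjusted p = 0.0351). The call of crebbp.S ended without control replicate 1 (0.0761) or 3 (0.0907) or MOV10 replicate 2 (0.179). The PGC-1 coactivators, partners of PPAR and oestrogen-related receptors, were named after their values were seen. The L copy of ppargc1a had 0 and 1 reads in the MOV10 libraries and 14, 14 and 21 in the controls, while ppargc1b.L was at 9.08 ± 2.36 CPM against 1.37 ± 1.05. Each of these calls depended on single libraries. For ppargc1a.L the call ended without MOV10 replicate 2 (edgeR adjusted p = 0.122) or 3 (0.0532), and for ppargc1b.L without MOV10 replicate 3 (0.0653). The S copy of ppargc1a fell to 0.518 ± 0.467 CPM against 2.86 ± 0.421 CPM, a call that ended without any 1 control (0.0565 to 0.0781) or without MOV10 replicate 2 (0.125). Among 18 corepressor copies 3 rose and 3 fell, with 33.3% called (median -0.38). NCoR complex subunit gene gps2 rose in both copies, gps2.L 3.04-fold to 249 ± 7.07 CPM against 82.1 ± 10.9 CPM and gps2.S 3.66-fold to 136 ± 16.1 CPM against 37.1 ± 7.91 CPM (edgeR adjusted p = 4.62e-04 and 5.73e-04). Deacetylase gene hdac1.S fell 2.95-fold (edgeR adjusted p = 0.00111).

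Genes of the clock loop that REV-ERB and ROR regulate had 6 calls upward and 2 downward in 18 tested copies (median log2 fold change 0.32). That was 44.4% with a call, near the 42.1% of all genes. The count of lower copies was 1 without control replicate 3, without MOV10 replicate 2 or without MOV10 replicate 3. Repressor gene bhlhe40.L rose 38.4-fold, to 55.0 ± 15.1 CPM against 1.41 ± 0.559 in the controls (edgeR adjusted p = 5.73e-05). The activator genes arntl.L (BMAL1) and clock.S rose 15.0-fold and 3.42-fold (edgeR adjusted p = 4.48e-04 and 0.00184). Period gene per3.L and repressor gene bhlhe41.S, named after their values were seen, fell 3.26-fold and 11.6-fold. The Period copy per1.L went the other way and rose 3.14-fold (edgeR adjusted p = 0.00664). Neither per2.L nor per3.S passed, at log2 fold changes of 0.87 and 0.03. For bhlhe41.S the call ended in each of those 3 settings (edgeR adjusted p = 0.0766, 0.0979 and 0.0623), and without control replicate 3 its fall was 4.26-fold.

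Hormone synthesis and handling gave small lists. Of 9 tested copies on the steroid and vitamin D list 4 rose (44.4%), 1 fell (11.1%) and 4 did not pass. Across all tested genes 24.4% rose and 17.7% fell. The median log2 fold change was 1.23 on the list and 0.08 over all tested genes. Among the 4 listed copies that did not pass was tsc22d3.L, which does not encode an enzyme. The vitamin D activating enzyme gene cyp27b1.L rose 49.9-fold, to 27.7 ± 10.4 CPM against 0.530 ± 0.360, and 82.0-fold without control replicate 1. Steroid dehydrogenase gene hsd3b1 rose in both copies, hsd3b1.L by 17.6-fold and hsd3b1.S by 50.0-fold. The rise of hsd3b1.S was 23.0-fold without MOV10 replicate 3 and 76.5-fold without MOV10 replicate 2, and had a ratio of 96.9 (32.7 to 473) without control replicate 2. The copy that fell, hsd17b4.L, did so 2.39-fold, and lost its call without control replicate 1 (edgeR adjusted p = 0.0532) or 3 (0.105) or MOV10 replicate 2 (0.142). So the count of lower copies was 0 in those cases, and 2 without MOV10 replicate 3.

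Of 6 tested copies for thyroid hormone handling 2 rose and 2 fell (median log2 fold change 2.10). That was 33.3% each way, against 24.4% higher and 17.7% lower over all tested genes. The carrier gene ttr, which is also on the liver marker list, rose 19.0-fold (ttr.L) and 14.2-fold (ttr.S), and ttr.S 5.08-fold without MOV10 replicate 2 and 23.1-fold without MOV10 replicate 3. The inactivating deiodinase gene dio3.L, named after its values were seen, had 0 and 2 reads against 29, 57 and 19. Its partner dio3.S had 7 and 16 reads against 20, 0 and 0 and did not pass (log2 fold change 1.21 ± 1.48 SE). Of 12 sterol and bile acid copies 4 rose, 0 fell and 8 did not pass (median -0.28), and 2 rose without MOV10 replicate 3. The 4 sterol and bile acid copies called higher were 33.3% of those tested, against 24.4% of all tested genes. Sterol regulator gene srebf1.L rose 5.34-fold and apoe.S 8.50-fold, or 15.8-fold without control replicate 3. Bile acid transporter gene slc10a1.L rose 13.5-fold. It was 22.6-fold higher without control replicate 3, and its call ended without MOV10 replicate 3 (6.86-fold, edgeR adjusted p = 0.205).

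**Figure D5:**
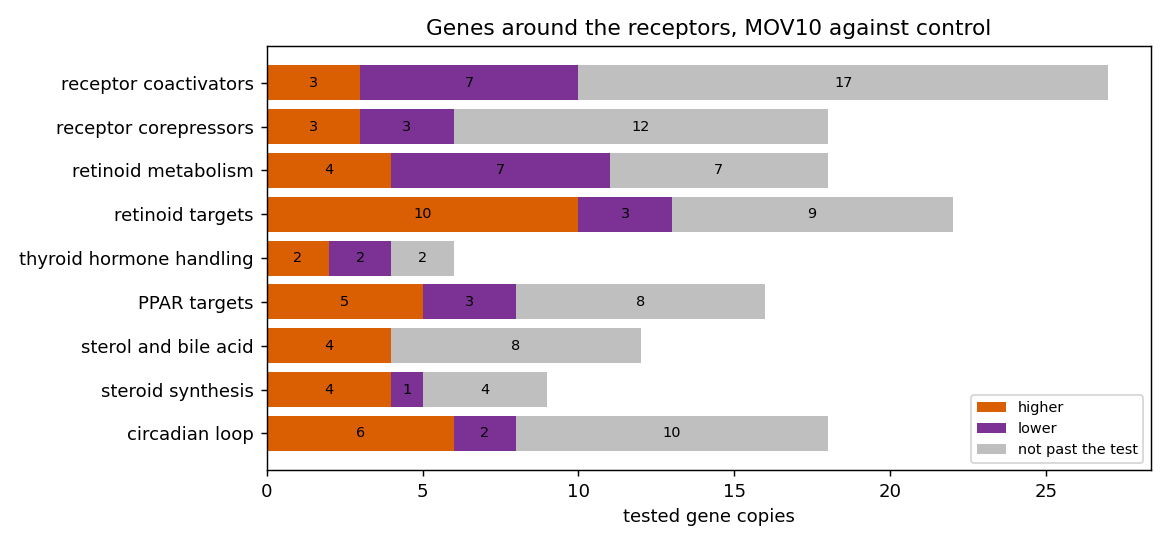
Number of tested gene copies that rose, fell or did not pass edgeR's quasi-likelihood test at an adjusted p of 0.05, for each list of genes around the receptors. Retinoid targets have the most copies higher (10 of 22), and retinoid metabolism (7 of 18) and coactivators (7 of 27) the most lower. The lists differ in length, so these counts do not rank them by share. Across all tested genes 24.4% rose and 17.7% fell.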

How the data were processed

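RNA-seq libraries of 3 control and 2 MOV10 morpholino embryo samples were analysed. The deposited files hold whole-number read counts per gene in STAR's layout. The submitters' processing notes list STAR 2.5.2a and edgeR 3.15.2, and the kit was stranded, per the labels' protocols. The column for the reverse strand was used, with 88.3 to 93.9% of stranded gene reads. The 4 summary lines naming no gene (unmapped 29.8 to 40.4%, several places 2.02 to 5.53%, outside features 48.6 to 57.1% of reads) were left out. The authors' deposited table gives log2 fold changes and false discovery rates, a kind of adjusted p-value. The test behind them is not stated in those sources, though the table's label may stand for a 1.5-fold threshold. The deposited annotation of Xenbase models on Xenla9.1 gave names, coordinates and span, the other value used; 45098 of 45099 models were named. No sequence was used here.

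Counts were fitted in R 4.3.3 with edgeR 4.0.16 over all genes past filterByExpr (minimum count 10; 20049 genes), with TMM scaling, glmQLFit and glmQLFTest (two-sided) and group as the only term. Benjamini-Hochberg adjustment ran over all tested genes. The SE is the log2 fold change divided by the root of F. DESeq2 1.42.0 was an alternative. Scripts were tested on simulated data. Where a group had 0 counts the fold is a bound against 3 counts over the group. With 1 to 3 counts it is a ratio with an exact 95% interval. Such intervals and bounds use counts summed over the libraries of a group, so they reflect counting error alone and leave out the spread between libraries. Reads without molecular tags can also repeat a molecule, which these intervals do not cover. Per-library values were given for receptor copies past the test and for the highest copy of a group with none, and up to 3 genes per companion list with the smallest adjusted p were named, some of which are not reported here. Members, lists and rules were chosen with earlier results of these data known. L and S copies count separately. STAR counts only reads that map to a single place.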

Additional observations from a re-analysis of the deposited data

How the results depend on the processing

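Of 15 receptor calls, 11 kept their direction and call in all 12 alternatives. The 4 others (hnf4g.L, rxrb.L, ppara.L and nr2f2.L) kept their direction, and none was reversed. Copies called higher numbered 13, with 11 to 14 over the alternatives. Copies called lower numbered 2, but 0 with the replicate block, 0 against a 1.5-fold change, and 0 to 2 with 1 library left out. The replicate block left 11 copies higher, with all 11 among the original calls. Replicate numbers 2 and 3 are shared by the groups, but the labels do not say that they mark a shared source. Deviations of same-numbered libraries from their group means correlated at 0.0865 and 0.0167. Those of MOV10 replicate 3 and control replicate 1 correlated at 0.0722. The deviations of the 2 MOV10 libraries mirror each other, so these correlations cannot tell whether a source was shared. Total gene counts as the scale moved the median log2 fold change of all genes from 0.08 to -0.12 and left 13 receptor copies higher and 2 lower. Unfiltered, 3 copies were lower. Directions reversed only for copies without a call. The log2 fold change of esrra.L was -0.35 to 1.23 with 1 library left out (lowest without MOV10 replicate 3), and that of rxrb.S 0.011 with the block. For nr2c1.L it was 0.0046 with DESeq2 and with RLE factors, 0.23 with the block, 0.27 without control replicate 1 and 0.29 without MOV10 replicate 3, with a lowest value of -0.48 without MOV10 replicate 2. For rarg-like.1.S it was -0.019 with total counts and -0.048 (without MOV10 replicate 3) to 0.47 with 1 library left out. List counts moved over 1.5 times by settings other than a left-out library were coactivators (4 lower with the block) and corepressors (5 higher with DESeq2, 5 lower with total counts). So were thyroid hormone handling (4 higher unfiltered), sterol genes (1 lower with total counts) and the steroid and vitamin D list (0 lower against a 1.5-fold change). With 1 library left out, copies called lower numbered 4 to 5 of the coactivators, 4 to 7 of retinoid metabolism, 0 to 2 of the steroid and vitamin D list and 1 to 2 of the clock loop. Copies called higher numbered 6 to 12 of the retinoid targets and 2 to 4 of the sterol genes. The cause of these changes was not tested. With 2 MOV10 libraries, 51 of 83 copies lay below the count minimum.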
